A study of Sus scrofa with 6 samples.

Results

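Integrins are the cell surface receptors by which cells hold on to the extracellular matrix. This account describes 10 porcine integrin subunit genes, ITGA3, ITGA5, ITGA6, ITGAV, ITGB1, ITGB3, ITGB4, ITGB5, ITGB6 and ITGB8, chosen by name and found by gene symbol in the annotation of the array. Of these 10 genes, 6 had at least 1 probe set that carried the symbol and no other, among 6765 genes measured on the array. They were ITGA5 with 2 probe sets and ITGA6, ITGAV, ITGB1, ITGB3 and ITGB5 with 1 each. ITGA3, ITGB4, ITGB6 and ITGB8 had no probe set of that name in the platform annotation and are not measured here. In 0 cases did a probe set with several symbols include a listed gene.

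Signals were compared between OBGF400, a cell line of porcine olfactory bulb neuroblast origin, and PK15, a pig line labelled as non-neuronal and epithelial, which the design used as the somatic background. Each line had 3 arrays, and RNA of 9 cultures per line was pooled into 3 samples, so the error given is that between pools of 1 line and not between animals. The cells of both lines were untreated and grew in medium with 10% bovine calf serum, OBGF400 in DMEM/F12/HAM and PK15 in minimum essential medium with amphotericin B added. Medium, line and any hybridization batch cannot be told apart.

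An integrin is a pair of an α and a β subunit, and the pair decides what it binds. The β1 subunit joins with many α subunits, among them α3 and α6 (laminin receptors), α1 and α2 (collagen receptors) and α5 (the fibronectin receptor), while αV joins with β1, β3, β5, β6 or β8 to bind ligands with the tripeptide RGD, such as fibronectin, vitronectin and the latent form of TGF-beta. The β4 subunit pairs with α6 alone and anchors epithelial cells to laminin at hemidesmosomes. Inside the cell, talin and kindlin bind most β tails, switch the receptor to its active shape and link it through vinculin and other adaptors to actin.

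All signals are on the log2 scale, and each difference is OBGF400 minus PK15 on that scale, so 1 unit is a 2-fold change. A called gene has an adjusted p under 0.05 in limma with Benjamini-Hochberg adjustment over all 23999 probe sets tested. For a gene with several probe sets, the one with the highest mean over all arrays gave the call. The mean signal of an array lay between 5.41 and 5.42, and arrays had a shared lowest value of 2.13, here called the floor, and 25.8% to 27.3% of probe sets at it. The correlation across probe sets was 0.996 to 0.998 within a line and 0.860 to 0.865 between the lines. RNA control probe sets also differed: the actin 3′ minus 5′ signal was -0.22 to -0.12 in OBGF400 and 0.47 to 0.53 in PK15, and the 28S rRNA signal was 10.53 to 10.61 in OBGF400 and 8.25 to 9.41 in PK15. The part of these in the results was not tested.

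The label of each line was set against marker genes. All 11 measured epithelial markers were lower in OBGF400, with KRT8 averaging 2.63 ± 0.21 against 14.77 ± 0.05 in PK15 and EPCAM averaging 2.29 ± 0.01 against 13.78 ± 0.16 in PK15 (SD, n = 3 arrays each). The junction gene JUP (-1.06), 1 of these, was not called when any 1 array was left out. Of 11 mesenchymal markers, 10 were higher in OBGF400 and 0 lower, led by ACTA2, CDH11 and LUM. VIM, 1 of the 10, averaged 15.14 ± 0.01 in OBGF400 and 15.04 ± 0.02 in PK15 (SD, n = 3 arrays each). Its difference of 0.11 was not called after median centring of the arrays. It became -0.22 after scaling the arrays on all poly-A spike-in controls. The log2 signals summed over the epithelial list were 32.1 to 32.5 in OBGF400 and 125.3 to 127.1 in PK15, and over the mesenchymal list 126.9 to 127.3 in OBGF400 and 40.6 to 42.1 in PK15. Of 8 neuronal and neuroblast markers, UCHL1, NCAM1 and MAP2 were higher in OBGF400, STMN1 was lower, and the neuronal genes STMN2, GAP43, SNAP25 and ELAVL4 lay at the floor in both lines.

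OBGF400 had more signal of the shared β1 subunit, of α5 and αV, which bind RGD ligands, and of β5, and less of β3. Of the 6 measured genes, 4 were higher in OBGF400, 1 was lower and ITGA6 was not called, and their median difference was 1.52. Over all 6765 genes, 58.1% were called, 22.7% as higher and 35.4% as lower in OBGF400, with a median difference of -0.002. Among genes with a mean signal of at least 8, a limit chosen after the data were seen, 78.2% were called, 29.6% as higher and 48.6% as lower. The integrin genes with such a mean were 5, of which 4 were higher and 1 lower. Of the 7 probe sets of the 6 measured genes, 5 were higher and 1 lower. Of all probe sets, 41.9% were called, 20.2% as higher and 21.7% as lower. For 5 of the 6 genes no OBGF400 array lay within the PK15 range, as for 66.9% of all genes. Because these are bulk samples, fewer cells with a transcript and less RNA per cell cannot be told apart.

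**Figure D1:**
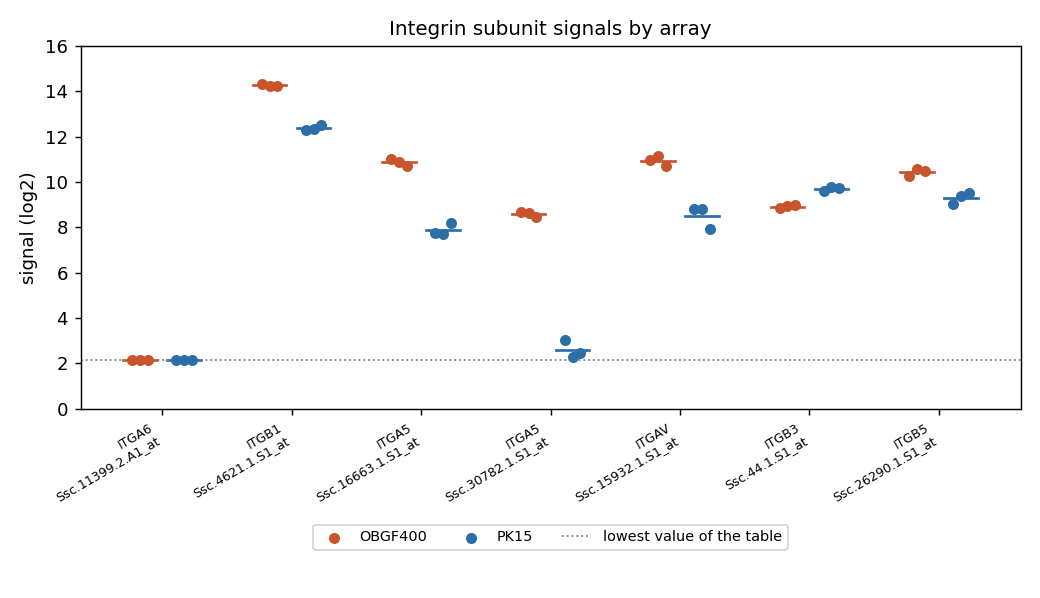
Log2 signal of the 7 probe sets of the 6 measured integrin genes on each array. Points are arrays, OBGF400 in orange and PK15 in blue, short lines are means of 3 arrays, and the dotted line is the floor of 2.13. ITGB1, ITGA5, ITGAV and ITGB5 were higher and ITGB3 lower in OBGF400 with no overlap, and ITGA6 lay at the floor on all 6 arrays.

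ITGB1, the β subunit shared by laminin, collagen and fibronectin receptors, was at 14.33, 14.23 and 14.25 on the OBGF400 arrays, against 12.27, 12.35 and 12.51 on the PK15 arrays. The groups lay far apart and each spanned under 0.3. The difference was 1.89 (95% interval 1.69 to 2.09, adjusted p = 8.9e-05, limma), which is 3.71-fold (3.24 to 4.26). Of all genes, 91.9% had a lower difference.

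ITGA5, the α subunit of the classical fibronectin receptor, pairs with β1 alone. Its brighter probe set was at 11.03, 10.89 and 10.72 in OBGF400, against 7.77, 7.71 and 8.20 in PK15. The difference was 2.99 (95% interval 2.53 to 3.45, adjusted p = 0.00027, limma), or 7.94-fold (5.79 to 10.9). The other probe set, at 8.68, 8.62 and 8.45 in OBGF400 and 3.03, 2.28 and 2.43 in PK15, gave 6.005 (95% interval 5.39 to 6.62, adjusted p = 8.3e-05, limma). PK15 arrays of this probe set lay within 1 unit of the floor, and with 32 added to the linear values its difference was 3.45, against 2.83 for the brighter one. Both probe sets thus had the same direction, with sizes that depended on the floor for the dimmer of them. Averaging them gave 4.50.

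ITGAV, the α subunit common to the vitronectin receptors, was at 10.95, 11.13 and 10.68 in OBGF400, against 8.82, 8.79 and 7.94 in PK15. PK15 replicate 3 lay below the other PK15 arrays, and the SD of 0.50 in PK15 was above the 0.12 that was the median of SDs where the line's mean was 8 to 10. That array also had the lowest 28S rRNA signal, 8.25. The difference was 2.40 (95% interval 1.59 to 3.22, adjusted p = 0.0034, limma), or 5.29-fold (3.01 to 9.32). Without PK15 replicate 3 it was 2.11.

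Besides β1, which was higher in OBGF400, the 2 measured β partners of αV moved in opposite directions in the deposited values. ITGB5, which pairs with αV alone in a vitronectin receptor, was at 10.28, 10.59 and 10.49 in OBGF400, against 9.03, 9.37 and 9.52 in PK15. The lines did not overlap, and the difference was 1.14 (95% interval 0.70 to 1.59, adjusted p = 0.0054, limma), or 2.21-fold (1.63 to 3.00). It was 0.29 and not called (adjusted p = 0.189) after scaling the arrays on dap and thr, the stronger poly-A spike-in controls.

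ITGB3, which pairs with αV or with the platelet subunit αIIb, was at 8.85, 8.93 and 8.96 in OBGF400, against 9.58, 9.76 and 9.73 in PK15. It was the only one of the 6 measured genes lower in OBGF400, with a difference of -0.78 (95% interval -0.95 to -0.61, adjusted p = 0.00079, limma). After scaling on the hybridization controls the difference turned to 0.04 and was not called (adjusted p = 0.79). ITGA2B, the gene of αIIb, read 2.15 on all 6 arrays.

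**Figure D2:**
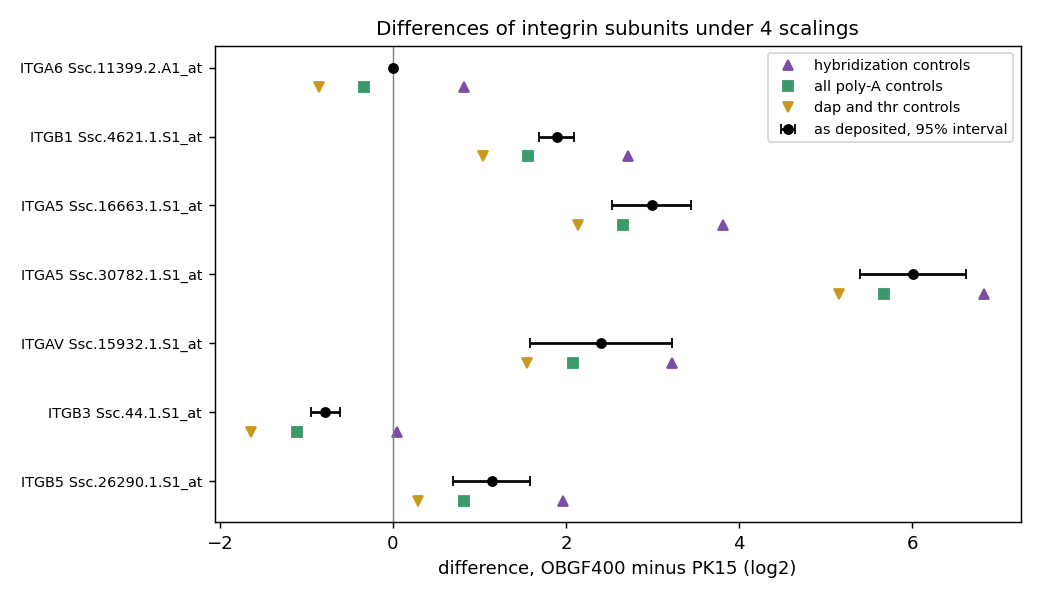
Difference in log2 signal, OBGF400 minus PK15, for each probe set of the measured integrin genes. Black points with bars are the values as deposited with 95% intervals, and coloured marks are the values after scaling on hybridization controls, all poly-A controls, or dap and thr controls. ITGB1, ITGA5 and ITGAV stay above 0 under each of these, while ITGB3 reaches 0.04 and ITGB5 0.29 at their nearest to 0.

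Control probe sets differed between the lines in opposite ways. The hybridization controls differed by -0.82, lower in OBGF400, and the poly-A controls dap and thr by 0.85, higher in OBGF400. Scaling on either moved the difference of every gene by the same amount with the opposite sign. Differences between subunits within an array do not depend on such a scaling. They were taken for the 10 pairs of the 5 subunits above the floor, each by its brightest probe set. They show unequal change of these probe sets, not relative abundance. The 2 ITGA5 probe sets gave 2.99 and 6.005, so the size of a pair difference can depend on the probe set.

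In 8 of the 10 pairs the lines did not overlap. Each of the paired subunits had already separated the lines by itself, as 66.9% of all genes did, and the pairs share members. No share over other pairs of genes was computed, so this count is only a description. ITGB5 minus ITGB3 was 1.43, 1.66 and 1.53 in OBGF400, against -0.55, -0.39 and -0.21 in PK15, so β5 was higher relative to β3 in OBGF400 by 1.92. ITGAV minus ITGB3 was 2.10, 2.20 and 1.72 in OBGF400, against -0.76, -0.97 and -1.80 in PK15, a difference of 3.18. ITGB1 minus ITGA5 was 3.30, 3.33 and 3.53 in OBGF400, against 4.50, 4.64 and 4.31 in PK15. The α5 probe set thus differed more than that of its partner β1, by 1.10 in size. The pairs of ITGAV with ITGB1 (-0.51) and with ITGA5 (0.59 for ITGA5 minus ITGAV) overlapped between the lines. With 3 arrays against 3, the exact two-sided permutation p of each separated pair was 0.1, the smallest the design allows, and 0.125 after Benjamini-Hochberg adjustment over the 10 pairs.

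**Figure D3:**
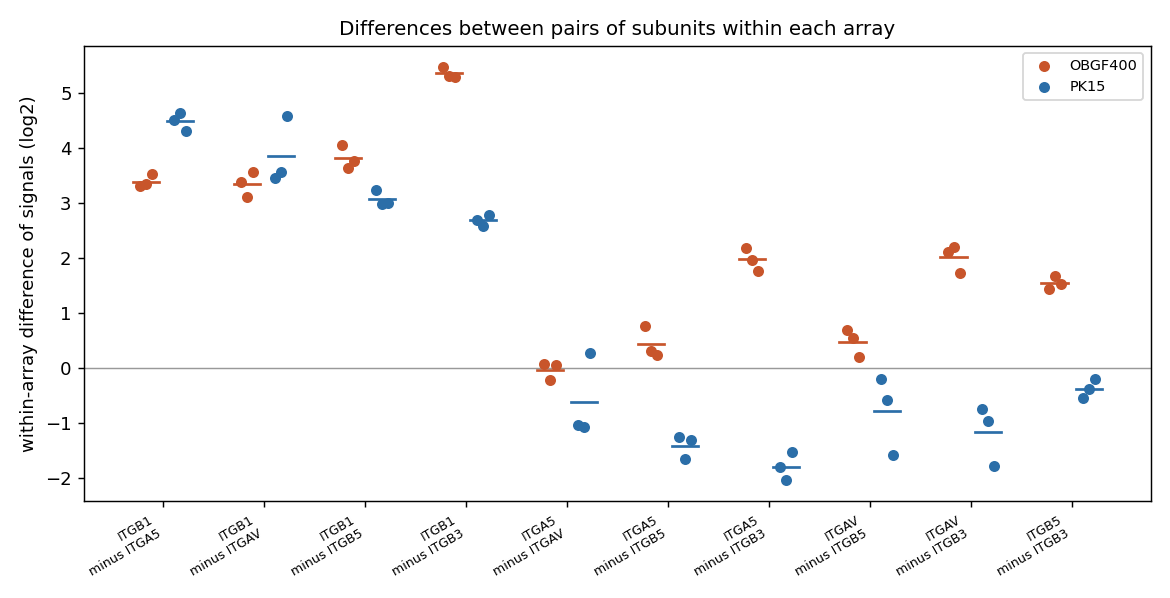
Within-array difference in log2 signal for each pair of the 5 integrin subunits above the floor. Points are arrays, OBGF400 in orange and PK15 in blue, and short lines are means of 3 arrays. Pairs with ITGB3 separate the lines by the widest margins, and ITGB1 minus ITGAV and ITGA5 minus ITGAV overlap.

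Laminin receptors could be compared only in part. ITGA6, the α subunit of the α6β1 and α6β4 laminin receptors, was at 2.13 on each of the 3 OBGF400 arrays and on each of the 3 PK15 arrays. Its only probe set therefore gave no level in either line, and its difference of 0 carries no information on the gene. The identifier of this probe set ends in A1. Of 11819 probe sets with an A ending, 39.2% were at the floor on all 6 arrays, against 22.7% of 12116 with an S ending. For ITGA2 and ITGB7, the A1 probe set lay at the floor on all arrays while the S1 probe set read higher. The A1 probe set of ITGA8, however, read 11.21, 10.89 and 11.10 in OBGF400, and both endings of ITGAM were at the floor. Whether the ending bears on the ITGA6 reading was not tested. ITGA3 and ITGB4 were not measured, so among the 10 genes β1 was the only subunit of laminin receptors with a level.

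Among collagen receptors, β1 was higher in OBGF400 and α2 was lower. No collagen-binding α subunit was among the 10 genes, and of the 4 such genes looked up, only ITGA2 was measured. ITGA2, which pairs with β1 to bind collagen and laminin, was at 2.83, 3.06 and 3.24 in OBGF400, against 7.63, 7.64 and 7.32 in PK15. The difference was -4.49 (95% interval -4.90 to -4.09, adjusted p = 5.9e-05, limma), and -2.43 with 32 added, since the OBGF400 arrays were near the floor.

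The widest difference among all integrin genes measured was that of ITGA8, which is outside the 10 genes. Its product pairs with β1 and binds RGD ligands such as nephronectin and tenascin-C. The brightest of its 3 probe sets was at 12.52, 12.37 and 12.39 in OBGF400 and at the floor on the 3 PK15 arrays, a difference of 10.29 (adjusted p = 3.1e-07, limma) or 7.25 with 32 added. The other probe sets gave 9.32 and 7.93. ITGB7, the partner of α4 and αE in lymphocyte homing receptors, differed by 1.35 at low signals, 4.49, 4.17 and 4.21 in OBGF400 against 2.75, 3.44 and 2.64 in PK15, and by 0.37 with 32 added. This call (adjusted p = 0.015, limma) was lost without OBGF400 replicate 1 (1.25) or 3 (1.39) or without PK15 replicate 1 (1.25). ITGAM and ITGB2, the subunits of a leukocyte integrin, were at the floor in both lines. Of these 6 further integrin genes, 2 were higher, 1 was lower and 3 were not called.

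**Figure D4:**
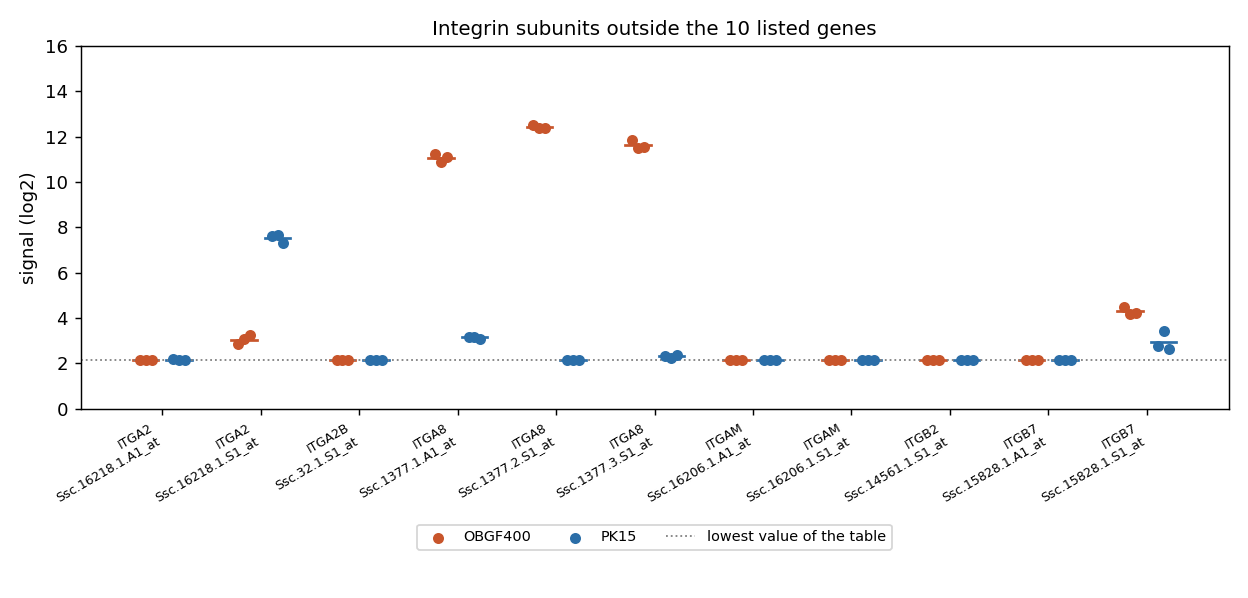
Log2 signal of the probe sets of the 6 measured integrin genes outside the 10 listed, on each array. Points are arrays, OBGF400 in orange and PK15 in blue, short lines are means of 3 arrays, and the dotted line is the floor of 2.13. All 3 ITGA8 probe sets are above 10 in OBGF400 and below 4 in PK15, and the S1 probe set of ITGA2 shows the opposite order.

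By binding class, 5 of the 7 RGD-binding subunits among the 10 genes were measured, counting β1, of which 4 were higher and 1 lower in OBGF400, with a median difference of 1.89. With ITGA8 and ITGA2B added, 7 of 9 were measured, of which 5 were higher, 1 was lower and 1 was not called. The laminin group among the 10 genes had 2 of 4, with β1 higher and α6 at the floor, and α2, which also binds laminin, was lower. The collagen group had 2 of 5, with β1 higher and α2 lower. No difference between the classes was tested, since β1 is in each of them.

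The ligands of these receptors were also looked up from lists chosen with earlier results of these data known. All 5 measured laminin and basement membrane genes were higher in OBGF400, with a median of 2.47. The laminin β1 chain LAMB1 averaged 13.81 ± 0.04 in OBGF400 and 9.77 ± 0.14 in PK15 (SD, n = 3), and the laminin γ1 chain LAMC1 averaged 12.05 ± 0.04 in OBGF400 and 9.59 ± 0.18 in PK15 (SD, n = 3). The collagen IV chain COL4A2 differed by 3.63. The smallest of the 5, LAMB2 (0.87), was not called when any one of OBGF400 replicates 1 and 3 and PK15 replicates 1 and 2 was left out, nor under dap and thr scaling (0.02). Of 11 collagens, 7 rose and 0 fell, led by COL15A1 (11.17, or 8.22 with 32 added), the fibrillar COL1A2 (9.91, or 7.52) and COL6A3 (8.58, or 5.77). The median over the collagens was 5.24. COL3A1 (2.65 in OBGF400 and 2.58 in PK15), COL11A1 (2.81 and 2.15), COL2A1 (2.31 in both) and COL10A1 (2.13 in both) were not called. With means this near the floor, their differences carry little information on these genes.

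The list called RGD ligands held ligands of RGD-binding integrins, and the presence of the tripeptide in each was not checked. Of 17 measured RGD ligands, 8 rose, 3 fell and 6 were not called, and the median was 0.11. The thrombospondin THBS2 (10.76, or 7.78 with 32 added), periostin, POSTN (10.04, or 7.09), and the microfibril gene FBN1 (9.74, or 7.57) led the rises. THBS1 was also among them. All 5 of its probe sets were called higher, with differences of 1.07 to 9.63. The probe set that gave its call, at 1.07, was not called when any OBGF400 array or PK15 replicate 3 was left out, nor under dap and thr scaling (0.22). Fibronectin, FN1, the main ligand of α5β1, had a difference of 0.11 that was not called (adjusted p = 0.087, limma), averaging 14.25 ± 0.01 in OBGF400 and 14.15 ± 0.07 in PK15 (SD, n = 3). It was called without PK15 replicate 3, with its probe sets averaged, and under hybridization control scaling (0.93). The difference became -0.22 under scaling on all poly-A controls and -0.75 under dap and thr scaling. Of the 4 FN1 probe sets, a dimmer one was called higher in OBGF400, at 8.09, 9.29 and 8.90, against 4.05, 2.96 and 5.59 in PK15. That difference was 4.56 (adjusted p = 0.011, limma), or 3.12 with 32 added. The other FN1 probe sets were near or at the floor in both lines. Vitronectin, VTN, was at the floor in both lines. Osteopontin, SPP1, differed by -0.57, which became 0.25 under hybridization control scaling, and the disintegrin ADAM15 by -1.43 at low signals. That scaling gave 14 RGD ligands higher in OBGF400, and dap and thr scaling 9 lower, counts that include ligands at the floor in both lines.

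The αV integrins with β6 or β8 release TGF-beta from its latent form. Neither β subunit was measured. A wider list of αV, TGF-beta ligands, their receptors and THBS1, not limited to that step, had 5 higher and 1 lower of 7, αV among the higher ones. The ligand TGFB2 averaged 8.51 ± 0.16 in OBGF400, against 2.43 on each PK15 array (6.08, or 3.41 with 32 added), and TGFB3 (3.53, or 1.45) and the receptor TGFBR1 (1.60) were higher too. TGFB1 was lower, averaging 5.48 ± 0.06 in OBGF400 and 9.09 ± 0.18 in PK15 (SD, n = 3).

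Inside the cell, counts of genes that activate integrins or join them to actin were higher for rises than for falls in the deposited values, but not under dap and thr scaling. Of 7 measured genes around talin and kindlin, 5 rose and 1 fell (median 0.70), although no kindlin gene was measured. Talin, TLN1, averaged 11.11 ± 0.12 in OBGF400 and 8.77 ± 0.24 in PK15 (SD, n = 3). The ILK complex partner RSU1 differed by 3.35 and filamin, FLNA, which competes with talin for β tails, by 1.31. SHARPIN, an inhibitor of integrin activation, was lower by -1.57. Scaling on all poly-A controls left 3 of these 7 higher and 1 lower, and dap and thr scaling 3 higher and 3 lower. Those 3 lower genes included TNS3, which was at the floor on every array and was moved to -0.85 by the scaling alone.

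Of 20 focal adhesion adaptors and kinases, 12 rose and 3 fell, and the median was 0.76. Vinculin, VCL, averaged 14.30 ± 0.03 in OBGF400 and 10.81 ± 0.08 in PK15 (SD, n = 3) on its brightest probe set. Of its 3 probe sets, 2 were called higher, and their differences ran from -0.24 to 8.42 over all 3. The Src family kinase FYN (5.47) and the actin-associated PDLIM7 (3.99) had the other large rises, and the ILK partner PARVA differed by 2.53. The lower genes were GIT1 (-1.09), CAV2 (-0.86) and CRKL (-0.48). Under hybridization control scaling 0 were lower, with CRKL at 0.34, GIT1 at -0.26 and CAV2 at -0.03, and under dap and thr scaling 8 were higher and 9 lower. The GTPases CDC42 (0.16) and RAC1 (-0.05) were not called, and RHOA differed by 0.08, which turned negative under both poly-A scalings.

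Of 4 measured hemidesmosome genes, the plakin DST (1.93) and the tetraspanin CD151 (1.11), which binds laminin receptors at the surface, were higher in OBGF400. The CD151 difference was 0.26 and not called under dap and thr scaling. COL17A1, the hemidesmosomal collagen, was not called and was near the floor, with 2.24 on each OBGF400 array and 2.20 ± 0.06 in PK15 (SD, n = 3). Only 1 of 3 DST probe sets was called.

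Among 16 tetraspanins and other partners at the surface, 6 were higher and 5 lower, and the median was -0.18. CD9, a tetraspanin that binds several integrins, averaged 3.20 ± 0.33 in OBGF400 and 12.66 ± 0.26 in PK15 (SD, n = 3). TSPAN13 (-9.60, or -7.37 with 32 added) and TSPAN7 (-7.70, or -4.83) were lower as well, and CD81 was higher by 1.80. SLC3A2 (0.77) and TSPAN14 (0.64) were also called higher, and became -0.09 and -0.21 under dap and thr scaling. Hybridization control scaling turned these counts into 11 rises and 3 falls, and dap and thr scaling into 1 rise and 10 falls.

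Genes of integrin traffic showed smaller differences, with 2 higher and 5 lower of 10 and -0.29 as the median. The clathrin heavy chain CLTC (1.25) and the endocytic adaptor DAB2 (1.17) were higher, and under dap and thr scaling neither was called (0.39 and 0.31). USP9X, a deubiquitinase, was lower by -1.76. ARF6, a GTPase of β1 recycling, differed by -0.83, which became -0.01 under hybridization control scaling, and RAB11A by -0.50, which became 0.32. The called probe sets of RAB11A disagreed in sign, and RAB11A was no longer called when any one of OBGF400 replicates 2 and 3 and PK15 replicates 1 and 2 was left out. Under hybridization control scaling 8 of the 10 were higher and 1 lower, and under dap and thr scaling 0 and 8.

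**Figure D5:**
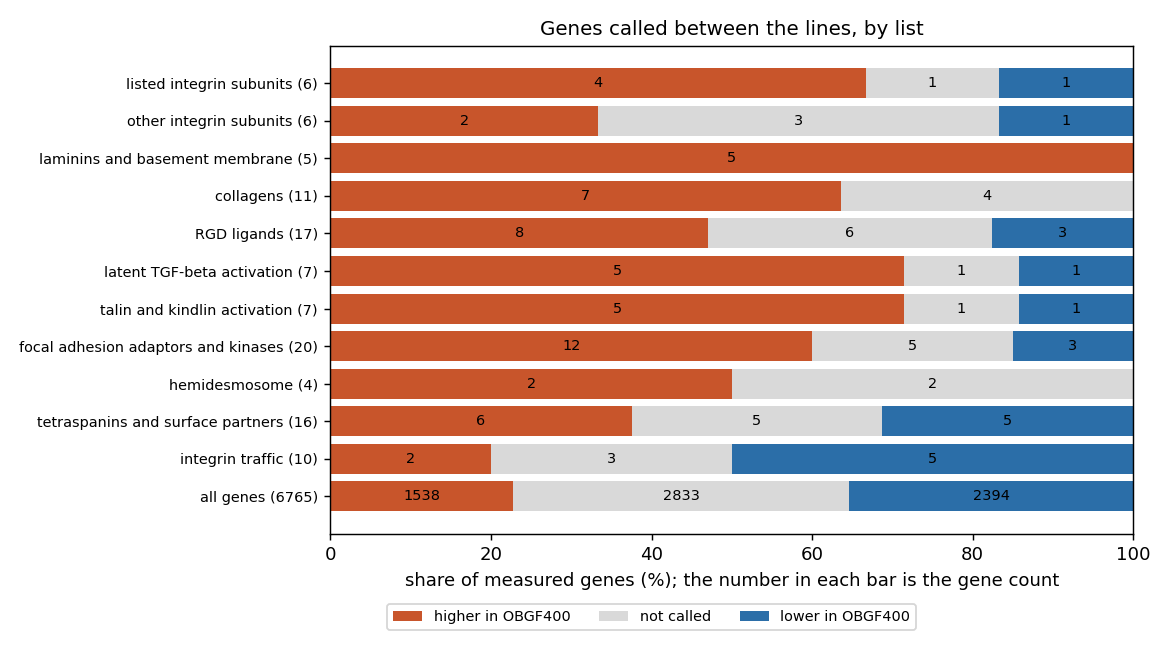
Share of the measured genes of each list called higher in OBGF400 (orange), not called (grey) or lower in OBGF400 (blue), with gene counts in the bars and the number measured after each name. All genes stand in the bottom row, with 1538 higher and 2394 lower of 6765, and all 5 laminin and basement membrane genes are higher.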

How the data were processed

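Total RNA pools of OBGF400 and PK15 cultures were labelled with biotin from 8 µg each by a 3′ one-cycle method, per the labels' protocols, and measured on Affymetrix porcine arrays. The deposited values are normalized log2 signals, 1 for each probe set of an array, and the package affy is listed per the submitters' processing notes. How the authors corrected background, summarised probes and normalized arrays is not given in the sources used here. With no detection calls, a probe set within 0.1 of the lowest value on all 3 arrays of a line was described as at the floor. The number of arrays limits the precision.

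Of 24123 probe sets, 124 controls were left out. Of the 23999 tested, 10069 had 1 symbol in the platform annotation, 198 several and 13732 none. The RefSeq gene table gave each measured member the same symbol for its Entrez number. The 2 lines were compared with limma 3.58.1 in R 4.3.3 (lmFit and default eBayes, two-sided, adjusted p under 0.05 after Benjamini-Hochberg adjustment), a procedure tested on simulated data. Figures were drawn with Python 3.11.15.

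The members, lists and tests were chosen with earlier results of these data known. Named genes were all members, all other measured integrins and, from each list, at most 3 called genes in each direction, taken by size of the difference. FN1, VTN, COL3A1, COL11A1, COL2A1, COL10A1, COL17A1, PARVA, CDC42, RAC1, RHOA, LAMB2, THBS1, JUP, VIM and the markers at the floor were named after their values were seen. Alternatives were other normalizations, control scalings, filters, variance models, 32 added to linear values, other probe set rules, replicate numbers as a block, a threshold of 0.01, and leaving out each array. The dap and thr scaling was added after the data had been seen.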

Additional observations from a re-analysis of the deposited data

How the results depend on the processing

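Over 21 alternatives, ITGB1 (1.04 to 2.71), ITGAV (1.55 to 3.23) and both ITGA5 probe sets (2.14 to 4.50 and 3.45 to 6.83) stayed higher in OBGF400 and called wherever they were fitted. Median centring gave 19464 called probe sets, 14431 of them lower in OBGF400, against 10060 and 5214 as deposited. It made 2 integrin subunits lower, because ITGA6, at the floor throughout, was called at -0.079. Hybridization control scaling gave 21558 called, 18578 higher and 2980 lower, with 0 integrin subunits lower, ITGB3 at 0.045 and ITGA6 at 0.82. Dap and thr scaling gave 21593 called, 2763 higher and 18830 lower. The 2 integrin subunits lower with it were ITGB3 at -1.63 and ITGA6 at -0.85, and ITGB5, at 0.29, was not called. Scaling on all poly-A controls gave 10615. The share of called probe sets that were higher was 48.17% as deposited, 25.86% after median centring, 86.18% with hybridization, 35.85% with all poly-A and 12.8% with dap and thr scaling. The median difference of all genes was 0.82, -0.33 and -0.86 under these control scalings. Filters on dim probe sets left ITGA6 out. Leaving out each array gave 8898 to 9483 called probe sets, with 4 subunits higher and 1 lower each time. Of 672 counts over lists and alternatives, 58 moved by over 1.5 times, 45 of them under median centring or control scaling.

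Arrays of the lines that share a replicate number did not deviate together (correlations across probe sets of 0.04, 0.007 and 0.02). With the replicate number as a block, 8661 probe sets were called, and the 5 called subunits stayed called, with ITGB5 at adjusted p = 0.0123. Of the genes named, ITGB7, ADAM15, GIT1, LAMB2, RHOA, JUP and CD14 had calls that were lost with the block, and RAC1, not called as deposited, was called with it. Without detection calls, levels near 2.13 give no order.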

Other observations

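Markers of leukocytes were looked up because ITGAM and ITGB2 belong to these cells. Of 10 measured, 3 were higher in OBGF400, 3 lower and 4 not called, with PTPRC, the pan-leukocyte phosphatase, and CD163, a macrophage receptor, at the floor in both lines. AIF1, a gene of macrophages and microglia, read 2.15 on each OBGF400 array and averaged 10.72 ± 0.11 in PK15 (SD, n = 3), and LAPTM5 averaged 2.18 ± 0.09 in OBGF400 and 10.94 ± 0.17 in PK15 (SD, n = 3). TYROBP differed by 2.34 (1.22 with 32 added), CD3E by 1.5 (0.69) and SPI1 by -4.02 (-1.70). CD14 differed by 1.03 and was not called with dap and thr scaling, without any 1 of the OBGF400 arrays or without PK15 replicate 1. Of 9 endothelial markers, ERG was higher (5.90) and CDH5 lower (-2.24), a call lost without any 1 of the OBGF400 arrays or with 32 added. KDR, TEK, TIE1, CLDN5 and VWF were at the floor in both lines. Of 7 glial markers, GFAP (-5.10) and MBP (-5.36) were lower in OBGF400 and 0 were higher. Only 1 of 4 GFAP probe sets and 2 of 4 MBP probe sets were called.

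Of 427 transcript clusters with probe sets of both identifier endings, 110 had the A ending at the floor and the S ending above it on the 6 arrays, and 36 had the reverse.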
